A study of Mus musculus with 4 samples.

Results

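The genes described here were Tfpi and 8 other genes of blood coagulation and plasminogen activation: Tfpi2, F3, Thbd, Procr, Serpine2, Plau, Plaur and Plat. They were found as every probe whose RefSeq accession belonged to 1 of these genes, which gave 11 of the 39429 distinct gene probes on the array (2 each for Tfpi and F3, and 1 for each of the others). The set was chosen by function around Tfpi, with log2 ratios of palmitate over control on these arrays already known, among them those of the 2 Tfpi probes. The ratios of its members are therefore given as descriptions, and no p-value of a member is printed. Counts of members under a threshold, given further below, are descriptions too. The samples were 4 palmitate-treated and 4 control cultures of C2C12 cells, a mouse myoblast line derived from thigh muscle satellite cells. The cells were grown in 10% foetal bovine serum and were proliferating, at about 40% confluence, when treatment began. All samples are given as day 3 of proliferation. Palmitate, a saturated fatty acid carried on albumin, was present at 0.1 mmol/l for 48 h in medium with 5% foetal bovine serum, and the control medium held the same ethanol and albumin without palmitate. The sample label of the control RNA gives a medium with 10% serum (HS), whereas the treatment text gives 5% foetal bovine serum for both. All cultures came from 1 cell line, and each array held 1 palmitate culture (cyanine-5) beside 1 control culture (cyanine-3). No dye was exchanged, so an effect of palmitate and an effect of the dye on a probe cannot be told apart.

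Coagulation starts when tissue factor, the product of F3, meets factor VII of the plasma on a cell surface, which leads to factor Xa and thrombin. Tfpi blocks this start by binding factor Xa and the complex of tissue factor with factor VIIa. Thrombin bound to thrombomodulin (Thbd) turns from a clotting enzyme into an activator of protein C, which is held on the cell by its receptor (Procr). Fibrin and matrix proteins are removed by plasmin, which the activators Plau (urokinase) and Plat (tissue plasminogen activator) make from plasminogen. Plaur holds urokinase on the cell surface, and Serpine2 inhibits thrombin and both activators. Myoblasts are known to use urokinase and its receptor during migration, and urokinase takes part in muscle repair.

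Promoter sequence could be taken from the RefSeq promoter table (build GRCm38.p6, gene strand, 250 bases before to 50 after a start site) for 6 of the 9 genes, in 9 windows. Both Tfpi windows are shown because the gene has 2 annotated start sites in the table. The 2 Tfpi probes were not placed relative to these start sites. Capitals mark CACGTG, an E-box (its own reverse complement), which 7.15% of all 32851 windows hold. It lies after the start site in the upstream window, and these letters are not in the other.

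Tfpi, chr2:84476710-84477009 (minus strand): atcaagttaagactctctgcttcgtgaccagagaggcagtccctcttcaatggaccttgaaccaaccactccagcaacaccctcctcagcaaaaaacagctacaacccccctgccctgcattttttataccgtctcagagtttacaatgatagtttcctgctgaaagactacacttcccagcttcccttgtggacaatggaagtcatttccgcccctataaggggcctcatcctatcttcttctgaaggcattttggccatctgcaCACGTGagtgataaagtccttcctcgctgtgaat

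Tfpi, chr2:84474125-84474424 (minus strand): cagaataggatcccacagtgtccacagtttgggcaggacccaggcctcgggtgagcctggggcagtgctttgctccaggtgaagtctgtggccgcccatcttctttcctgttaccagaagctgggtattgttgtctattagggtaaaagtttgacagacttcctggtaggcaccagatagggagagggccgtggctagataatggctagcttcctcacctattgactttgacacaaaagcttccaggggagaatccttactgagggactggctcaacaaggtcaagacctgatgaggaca

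F3, Procr and Plaur are shown because each holds the letters of an AP-1 motif, TGACTCA on either strand, which 5.20% of all windows hold. Capitals mark the motif. Its first base lies 135 bases before the start site in F3, 154 in Procr and 69 in Plaur.

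F3, chr3:121723287-121723586 (plus strand): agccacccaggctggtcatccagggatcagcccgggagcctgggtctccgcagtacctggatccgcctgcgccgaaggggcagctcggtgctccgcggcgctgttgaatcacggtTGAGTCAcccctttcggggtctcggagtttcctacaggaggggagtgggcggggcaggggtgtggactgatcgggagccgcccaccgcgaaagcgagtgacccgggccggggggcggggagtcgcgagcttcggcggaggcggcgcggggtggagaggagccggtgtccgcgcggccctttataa

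Procr, chr2:155750967-155751266 (plus strand): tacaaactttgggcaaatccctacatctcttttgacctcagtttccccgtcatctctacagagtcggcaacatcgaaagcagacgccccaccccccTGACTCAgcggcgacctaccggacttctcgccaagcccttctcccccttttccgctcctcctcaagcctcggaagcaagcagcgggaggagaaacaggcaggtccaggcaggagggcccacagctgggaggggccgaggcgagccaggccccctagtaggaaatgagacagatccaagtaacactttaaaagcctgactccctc

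Plaur, chr7:24462233-24462532 (plus strand): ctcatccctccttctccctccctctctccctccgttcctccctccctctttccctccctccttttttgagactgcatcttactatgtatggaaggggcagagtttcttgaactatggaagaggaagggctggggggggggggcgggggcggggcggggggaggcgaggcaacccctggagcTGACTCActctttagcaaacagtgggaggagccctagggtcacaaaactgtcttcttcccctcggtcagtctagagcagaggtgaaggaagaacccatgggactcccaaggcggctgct

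The letters of a TATA box (TATAAA, 13.6% of all windows) were found in 2 of the 9 windows, 1 of Tfpi and that of F3. Both matches were on the strand opposite to the gene, and that of F3 lay after the start site. A GC box (GGGCGG, 35.7% of all windows) was found in 6 windows of 5 genes, and the consensus of the NF-kappaB motif, which 0.155% of all windows hold, in 0 of 9. Both strands were searched, and none of the motifs contains another. These 5 motifs were chosen after the values had been seen, and a match describes letters in a window, not a bound site. Of the 3 genes with AP-1 letters, Procr had a mean log2 ratio of 0.14, Plaur of -0.38 and the F3 probes of -0.22 and 0.16.

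Only probes brighter than background in the palmitate or the control channel of every array, and without an outlier flag, entered the tests, which left 24047 probes (61.0%). Of the 11 probes of the set, 10 (8 genes) were tested, each above background in all 8 cultures. Tfpi2 was not well above background in any culture. Of all probes, 61.9 to 70.6% were above background in palmitate cultures and 57.5 to 64.0% in control cultures. With 4 arrays the precision rests on their number. The array of replicate 1 differed from the rest, with ratios correlated at -0.076 with the average of the other arrays, whereas the other arrays were correlated with each other at 0.68 to 0.77 (Pearson's r across 24047 probes, which are not independent replicates). All 6 myoblast markers looked for (Myod1, Myf5, Cdh15, Des, Pax7 and Ncam1) were tested. Pax7 was dim, with mean log2 levels of 7.34 in palmitate and 7.22 in control cultures. It was above background in every palmitate culture but not in every control culture. Of 8 endothelial markers 2 were tested (Pecam1 and Kdr), and no probe of Cdh5 or Tek was above background in any culture.

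The dimmer probe of Tfpi had the highest mean ratio of the set, and the brighter probe a smaller one. The log2 level of the dimmer probe was 9.11, 10.18, 9.85 and 9.92 in the palmitate cultures of replicates 1 to 4, against 8.86, 9.10, 8.80 and 9.35 in their control cultures. Its levels are normalized log2 signals, and its palmitate cultures were above their own controls on every array, although the palmitate culture of replicate 1 lay below the control culture of replicate 4. The log2 ratio of palmitate over control was 0.26, 1.08, 1.05 and 0.57 on the arrays of replicates 1 to 4, with a mean of 0.74 ± 0.40 (SD, n = 4), a fold of 1.67. The brighter probe had log2 levels of 11.58, 11.75, 11.52 and 11.57 in palmitate cultures, against 11.43, 11.36, 11.40 and 11.52 in control cultures. The groups overlapped through the palmitate culture of replicate 3 and the control culture of replicate 4, which were nearly equal. Its log2 ratio was 0.15, 0.39, 0.12 and 0.05 in the same order, with a mean of 0.18 ± 0.15 (SD, n = 4), a fold of 1.13.

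Both Tfpi probes are assigned to 1 RefSeq transcript, and their place in it was not used here. The ratio of the dimmer probe was above that of the brighter probe on 4 of 4 arrays, by 0.11, 0.69, 0.93 and 0.52 on the log2 scale for replicates 1 to 4, with a mean difference of 0.56 ± 0.35 (SD, n = 4). The gap was thus smallest on replicate 1, where the dimmer probe was also at its lowest. Among all tested probes, the mean ratio of the dimmer probe lay at percentile 99.4 and that of the brighter probe at percentile 80.3. In the authors' deposited log2 ratios, made from processed signals, the means were 1.02 for the dimmer and 0.19 for the brighter probe.

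**Figure D1:**
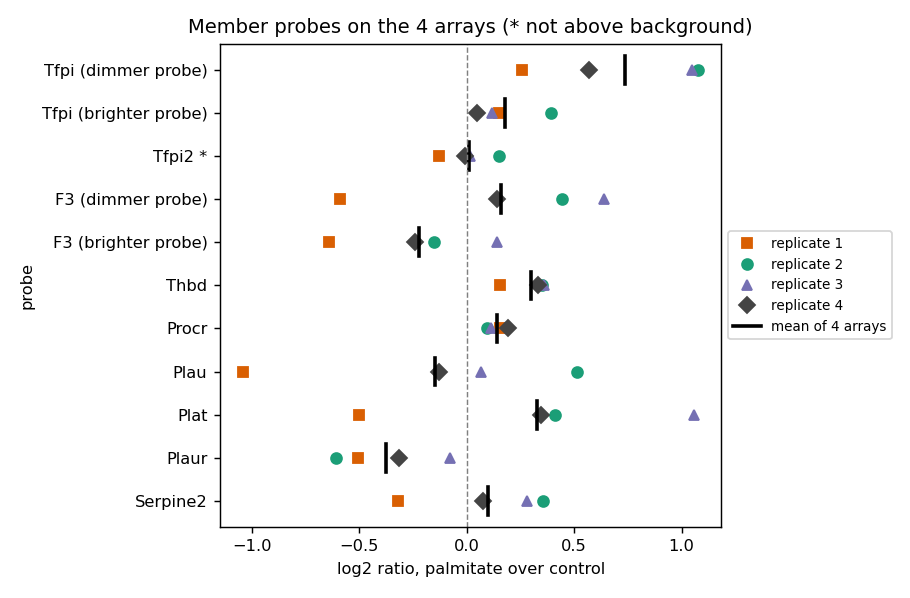
Palmitate over control as a log2 ratio (x axis) for the 11 probes of the 9 genes (y axis) on the 4 arrays, with symbols for replicates and vertical bars for means of 4 arrays. The dimmer probe of Tfpi lies between 0.26 and 1.08, Plaur lies below 0 on every array, and replicate 1 lies at the low end of F3, Plau, Plat and Serpine2.

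Of the 17607 other named probes tested, the nearest to the dimmer Tfpi probe over the 4 arrays belonged to Ythdf2 (a reader of methylated adenosine in RNA), Alkbh8 (a tRNA-modifying enzyme) and Slc33a1 (an acetyl-CoA transporter). Their root mean square differences from it were 0.041, 0.059 and 0.068 on the log2 scale (n = 4 arrays), and 41 of the named probes lay within 0.2. The nearest to the brighter probe belonged to Ldhal6b, Sp4 and Hecw2 (0.019, 0.020 and 0.023), with 3850 named probes within 0.2. The count within 0.2 depends on how near a probe's ratios lie to 0, where most probes lie. Likeness over 4 values says nothing of shared function.

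F3 encodes tissue factor, which Tfpi restrains, and its 2 probes differed in the sign of their means. The brighter F3 probe had log2 levels of 11.27, 11.84, 12.13 and 11.79 in palmitate cultures, against 11.91, 11.99, 11.99 and 12.03 in control cultures. Its control cultures lay close together, whereas its palmitate cultures spread on both sides of them. The ratio was -0.64, -0.15, 0.14 and -0.24 for replicates 1 to 4, with a mean of -0.22 ± 0.32 (SD, n = 4). The dimmer F3 probe had log2 levels of 7.95, 8.87, 9.25 and 8.82 in palmitate cultures, against 8.54, 8.43, 8.61 and 8.68 in control cultures. Its palmitate cultures lay below every control on replicate 1 and above every control on replicates 2, 3 and 4. Its ratio was -0.59, 0.44, 0.64 and 0.14, with a mean of 0.16 ± 0.54 (SD, n = 4). Both probes were lowest on replicate 1 and highest on replicate 3, and the dimmer probe exceeded the brighter on 4 of 4 arrays by a mean of 0.38 ± 0.24 (SD, n = 4). Both means were smaller than the spread between arrays, and that of the dimmer probe was -0.0028 without replicate 3. Tfpi2, a relative of Tfpi that inhibits plasmin and other proteases of the matrix, gave no fold because neither channel was above background on any array.

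Thbd and Procr, the cell surface proteins of the protein C pathway, had small ratios above 0 on all 4 arrays. Thbd had log2 levels of 10.73, 10.69, 10.92 and 10.95 in palmitate cultures, against 10.58, 10.34, 10.55 and 10.62 in control cultures. It was the 1 probe of the set whose groups did not overlap, beside 5.46% of all tested probes with every palmitate culture above every control culture and 6.79% with every palmitate culture below. Its ratio was 0.15, 0.35, 0.36 and 0.33, with a mean of 0.30 ± 0.099 (SD, n = 4), a fold of 1.23. Procr had log2 levels of 10.61, 10.45, 10.65 and 10.66 in palmitate cultures, against 10.46, 10.35, 10.54 and 10.47 in control cultures. The palmitate culture of replicate 2 lay within the range of the controls and the others above it. The log2 ratio of Procr was 0.16, 0.09, 0.11 and 0.19, with a mean of 0.14 ± 0.044 (SD, n = 4). This was the smallest range of the 10 tested probes, 0.097 on the log2 scale from the lowest to the highest array.

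Plau and Plat, the plasminogen activators, differed most between arrays. Plau had log2 levels of 9.32, 10.88, 10.06 and 10.18 in palmitate cultures, against 10.37, 10.37, 9.99 and 10.30 in control cultures. Its palmitate culture of replicate 1 was the lowest of the 8 cultures and that of replicate 2 the highest. The log2 ratio of Plau was -1.04, 0.51, 0.07 and -0.13, with a mean of -0.15 ± 0.65 (SD, n = 4). Plat had log2 levels of 8.85, 9.68, 10.47 and 10.03 in palmitate cultures, against 9.35, 9.27, 9.42 and 9.68 in control cultures. Its palmitate culture of replicate 1 was again the lowest of all, and that of replicate 3 the highest. The log2 ratio of Plat was -0.50, 0.41, 1.06 and 0.34, with a mean of 0.33 ± 0.64 (SD, n = 4). The ratio of each activator ranged over 1.56 on the log2 scale across the 4 arrays, a range that 2.22% of all tested probes reached, against a median range of 0.45.

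**Figure D2:**
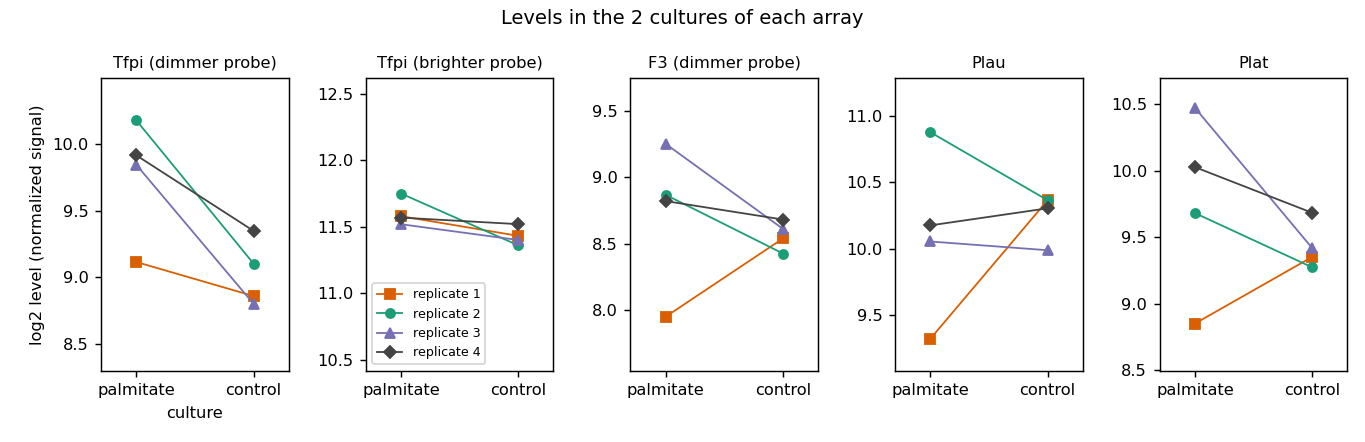
Normalized log2 level (y axis, each panel over the same span) of 5 probes in the palmitate and the control culture (x axis) of each array, with lines joining the cultures of an array. The palmitate cultures of F3 (dimmer probe), Plau and Plat spread more widely than their controls, with replicate 1 lowest.

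Plaur, the urokinase receptor, was the 1 gene of the set below 0 on all 4 arrays. Its log2 levels were 13.09, 12.93, 13.57 and 13.14 in palmitate cultures, against 13.60, 13.54, 13.64 and 13.46 in control cultures. The groups overlapped through the palmitate culture of replicate 3. The log2 ratio of Plaur was -0.51, -0.61, -0.08 and -0.32, with a mean of -0.38 ± 0.23 (SD, n = 4), a fold of 0.770. Serpine2, the serpin that inhibits thrombin, urokinase and tissue plasminogen activator, had log2 levels of 7.47, 8.31, 8.28 and 8.05 in palmitate cultures, against 7.79, 7.95, 8.002 and 7.98 in control cultures. Its palmitate cultures lay below the controls on replicate 1 and above them on the others. The log2 ratio of Serpine2 was -0.32, 0.36, 0.28 and 0.07, with a mean of 0.10 ± 0.30 (SD, n = 4). Like F3, Plau and Plat, it was below 0 on replicate 1.

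The spread of levels within a group was larger in palmitate cultures than in control cultures for 10 of the 10 tested probes. The SD of the log2 level over 4 cultures lay between 0.10 and 0.69 in palmitate cultures and between 0.049 and 0.25 in control cultures, with medians of 0.37 and 0.10. This was also so for 83.2% of all tested probes, whose median SD was 0.20 in palmitate cultures and 0.10 in control cultures. With the processed signals of the scanner software the palmitate SD was larger for 10 of 10 probes of the set and 68.6% of all. Dye and treatment coincide, so the spread of the cyanine-5 channel and that of the palmitate cultures cannot be told apart.

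**Figure D3:**
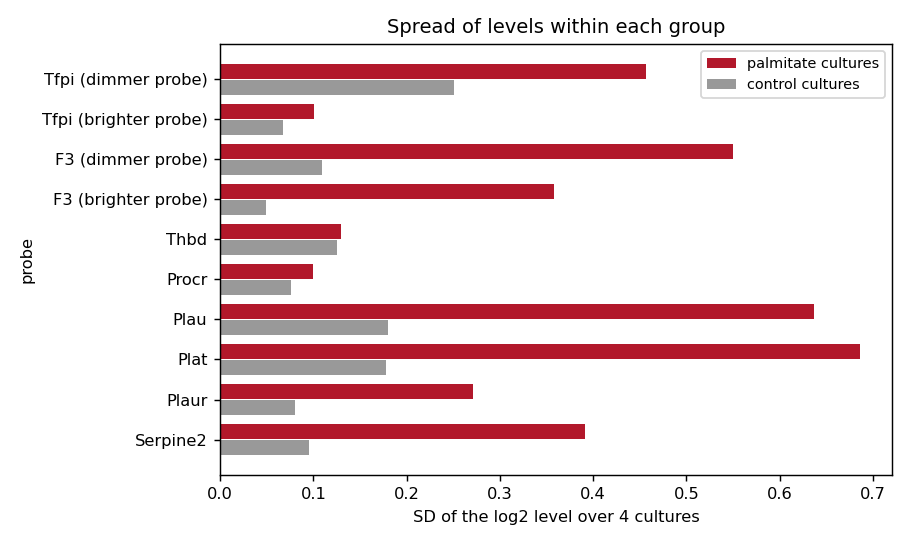
SD of the normalized log2 level over 4 cultures (x axis) of the 10 tested probes (y axis), with red bars for palmitate and grey bars for control cultures. The palmitate bar is the longer in each of the 10 probes, from 0.10 for Procr to 0.69 for Plat.

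Replicate 1 gave the lowest ratio of the 4 arrays for 7 of the 10 tested probes, beside 33.3% of all tested probes. On replicate 1, 4 probes were higher and 6 lower with palmitate, with a median log2 ratio of -0.41. On replicates 2, 3 and 4, 8, 9 and 7 of the 10 probes were higher, with medians of 0.37, 0.21 and 0.11. The ratios of 4 probes (the dimmer F3 probe, Serpine2, Plau and Plat) had a sign on replicate 1 opposite to that of the mean of replicates 2 to 4, as had 48.4% of all tested probes. Without replicate 1 the means were 0.60 ± 0.39 for Plat, 0.41 ± 0.25 for the dimmer F3 probe, 0.24 ± 0.15 for Serpine2, 0.15 ± 0.33 for Plau and -0.083 ± 0.20 for the brighter F3 probe (SD, n = 3 arrays). Without replicate 3 the mean of Plat was 0.084. The sign of Plau thus turned, while Tfpi stayed above 0 at 0.90 ± 0.29 for the dimmer and 0.19 ± 0.18 for the brighter probe (SD, n = 3).

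In limma over all tested probes, 0 of the 10 probes passed an adjusted p of 0.05 with a fold of 1.6, beside 0 of 24047 (0%). At an unadjusted p under 0.05, 2 were higher (the dimmer Tfpi probe and Thbd) and 1 was lower (Plaur), beside 10.7% of all tested probes higher and 11.1% lower. These counts describe the set and are no support for it, since its ratios were known. The same sign on all 4 arrays was found for 4 probes above 0 (both Tfpi probes, Thbd and Procr) and 1 below, beside 15.8 and 14.6% of all. Under median centring instead of loess, only the dimmer Tfpi probe of these 5 kept its sign on all 4 arrays. The median ratio of the 10 probes was 0.15, against 0.0088 for all tested probes. Without replicate 1, 1 of the 10 probes passed, the dimmer Tfpi probe as higher, beside 5.39% of all tested probes in either direction and 2.28% as higher. It did not pass without replicate 2, 3 or 4.

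Other genes of coagulation and plasminogen activation were counted in 4 lists with 49 genes, by the brightest tested probe of each gene. Of these 26 were tested, 0 passed in limma (beside 0% of 13660 genes), and at an unadjusted p under 0.05 there were 7 higher and 3 lower, beside 10.8 and 13.4% of all genes. The median ratio of the 26 genes was 0.044, against 0.0017 for all genes. For 12 of the 49 genes no probe was above background in any culture.

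Of 20 coagulation factors and proteins needed to make them, 10 were tested. At an unadjusted p under 0.05, 3 were higher and 2 lower, beside 10.8 and 13.4% of all genes. The lists were chosen with earlier results of these data known, so such counts are no support for them. Vkorc1, the reductase that recycles vitamin K, had -0.15, -0.93, -0.70 and -0.89 on replicates 1 to 4, a mean log2 ratio of -0.67 ± 0.36 (SD, n = 4, adjusted p = 0.118 from limma). Its other tested probe had -0.41 ± 0.28 (SD, n = 4). Ggcx, the carboxylase that uses vitamin K to modify clotting factors, had 0.02, 1.09, 0.87 and 0.24, a mean of 0.56 ± 0.51 (SD, n = 4, adjusted p = 0.175). These enzymes of 1 cycle thus lay on opposite sides of 0, and both passed without replicate 1, beside 4.85% of all genes (adjusted p = 0.00429 and 0.0252 from limma), with log2 ratios of -0.84 and 0.74. Lman1, a cargo receptor for factors V and VIII, had -0.29 ± 0.13 (SD, n = 4, adjusted p = 0.145). F10, which encodes factor X, had 0.54 ± 0.42 (SD, n = 4, adjusted p = 0.148) for a probe above background in every culture. The ratio of this probe was 1.07 on replicate 1, and its mean was 0.36 without that array. Its mean log2 levels, 18.1 in palmitate and 17.5 in control cultures, were the highest of the genes in these lists. The other F10 probe was not above background in any culture, so the probes of this gene disagree.

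Of 8 coagulation inhibitors 5 were tested, and Anxa5, which covers the phosphatidylserine that clotting enzymes need, had 0.32 ± 0.15 (SD, n = 4, adjusted p = 0.137 from limma). Of 6 thrombin and protease-activated receptors 1 was tested, F2r, the main receptor of thrombin on many cells. F2r had 0.12, 0.59, 0.53 and 0.56 on replicates 1 to 4, a mean of 0.45 ± 0.22 (SD, n = 4, adjusted p = 0.123).

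Of 15 genes of the plasminogen system 10 were tested. An unadjusted p under 0.05 was found for 2 with a ratio above 0 and 1 below, beside 10.8 and 13.4% of all genes. Anxa2, a cell surface receptor of plasminogen and its tissue activator, had 0.32, 0.54, 0.42 and 0.54, a mean of 0.46 ± 0.11 (SD, n = 4, adjusted p = 0.118 from limma). Its partner S100a10 had -0.16 ± 0.20 (SD, n = 4, adjusted p = 0.387). Lrp1, the receptor that clears activators bound to their inhibitors, had -0.31, -0.84, -0.24 and -0.54, a mean of -0.48 ± 0.27 (SD, n = 4, adjusted p = 0.125). Serpinb2, an inhibitor of urokinase, had 0.36 ± 0.29 (SD, n = 4, adjusted p = 0.177). Plg, which encodes plasminogen, was not well above background in any culture.

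**Figure D4:**
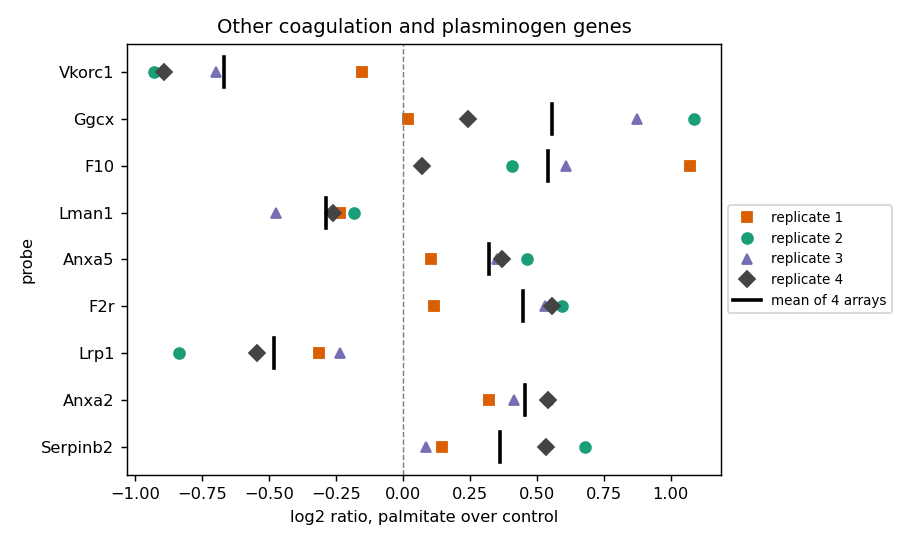
Palmitate over control as a log2 ratio (x axis) for the brightest tested probe of 9 other coagulation and plasminogen genes, named for a constant sign over the arrays at an unadjusted p under 0.05 (y axis), on the 4 arrays, with symbols for replicates and vertical bars for means. The constant sign of each gene follows from that choice, and Ggcx spreads most, from 0.02 to 1.09.

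Tfpi, Thbd and Procr are also known from endothelial cells, so the endothelial markers are given beside them, with those of other cell types. The summed normalized signal of the 2 tested markers lay between 1309 and 5867 in palmitate cultures and between 2406 and 3265 in control cultures. The sum came mostly from Kdr, with mean log2 levels of 10.6 in palmitate and 11.2 in control cultures, against 8.36 and 8.50 for Pecam1. Of the 2 Kdr probes 1 was not above background in any culture. The tested Kdr probe had a log2 ratio of 0.98 on replicate 1 and of -1.33, -1.09 and -0.93 on replicates 2, 3 and 4. Pecam1 had a mean of -0.14 ± 0.31 (SD, n = 4). Both markers were above 0 on replicate 1 and below 0 on the other arrays. Of 6 macrophage markers 3 were tested (Adgre1, Csf1r and Itgam), with a summed signal between 16698 and 59799 in palmitate cultures and between 18582 and 43826 in control cultures. This sum came mostly from Itgam, with mean log2 levels of 14.9 in palmitate and 14.8 in control cultures. Csf1r had 9.59 and 9.76, and Adgre1 7.44 and 7.48, with no Adgre1 probe above background in every palmitate culture. Ptprc was not tested, Cd68 had no named probe, and Lyz2 was not above background in any culture. Of 8 myotube markers 6 were tested, with a summed signal between 13591 and 17958 in palmitate cultures and between 14788 and 16942 in control cultures. Myog had a mean log2 ratio of 0.30 ± 0.14, Myh3 of 0.32 ± 0.18 and Tnnt1 of 0.31 ± 0.20 (SD, n = 4 each), above 0 on 4 of 4 arrays, while Mymk, Acta1 and Tnnc1 had means between -0.13 and -0.059. The summed signal of the 6 myoblast markers lay between 37224 and 41936 in palmitate cultures and between 33646 and 38426 in control cultures. Ncam1 (0.37 ± 0.14) and Myod1 (0.24 ± 0.20) were above 0 on 4 of 4 arrays, and Myf5 (0.41 ± 0.52) on 3 of 4. Pax7 (0.11 ± 0.20), Cdh15 (0.0078 ± 0.23) and Des (-0.13 ± 0.36) were above 0 on 2 of 4 (SD, n = 4 each). The part of these markers in the ratios of the set was not tested. All cultures came from 1 myoblast line, so the endothelial and macrophage marker signals do not count such cells. Between myoblasts and myotubes, fewer cells of a type and less RNA per cell cannot be told apart. Rpl13a, a ribosomal protein gene the study used as a PCR reference, had -0.018 ± 0.12 (SD, n = 4) for its brighter probe and 0.11 ± 0.15 (SD, n = 4) for the other.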

How the data were processed

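RNA of 4 palmitate-treated and 4 control C2C12 cultures was hybridized in pairs to 4 two-colour Agilent arrays of 1 slide with 44397 spots each. The scans were read with Agilent Feature Extraction, version 10.7.3.1, per the labels. Of what the authors deposited, the uncorrected median intensity of each spot and of its background was used in place of mean signals. The deposited files also hold processed intensity values, already background-subtracted and dye-normalized by the software, and a ratio column on a log10 scale. The table deposited by the authors holds 39485 log2 ratios, equal to those of the processed signals to within 3.0e-06 for single-spot probes, which sets their direction as palmitate over control.

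Normexp (offset 50) corrected background and loess the dyes, in limma 3.58.1 (R 4.3.3). Control spots and spots flagged as outliers were left out and spots of a probe averaged. Levels were scaled between arrays by quantiles of the mean brightness. Mean ratios were tested against 0 in limma with Benjamini-Hochberg adjustment over 24047 probes, and a call needed a fold of 1.6 at an adjusted p of 0.05. The biological replicates are pairs of cultures, and pairing follows the array. RefSeq accessions named 26055 probes and left 13374 without a name. The pipeline was tested on simulated data. The members and lists were chosen with earlier results of these data known.

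Genes named besides the members were, from each list, up to 4 whose brightest tested probe had a fold of at least 1.6, or the same sign on 4 arrays with an unadjusted p under 0.05, then Plg and Rpl13a, and the 3 genes nearest to each Tfpi probe. S100a10 and the cell type markers given with ratios were added after their values were seen. A further gene fixed in the rule is not reported here. Alternatives changed the background correction, source of values, dye normalization, filters, test, pairing, variance model and arrays.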

Additional observations from a re-analysis of the deposited data

Results flagged for a closer look

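Thbd on replicate 1 was the 1 value among the 11 probes of the set that was flagged as an outlier. Its log2 ratio of palmitate over control was 0.15 there, against 0.33 for the nearest other array, a gap of 0.868 of the whole range, past the critical value of Dixon's test for 4 samples. Chance flags about 1 in 20 groups. The array belongs to the replicate that stood apart across all tested probes.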

How the results depend on the processing

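Over 9 alternatives with 99 values of the 11 probes, 90 moved by less than 1 SD between arrays, and 9 moved by more. Among those 9 were values of Tfpi2, whose probe was not above background. Its mean went from 0.0082 to -0.64 with processed signals, -0.58 with the 75th percentile shift and -0.29 with median centring. Leaving out 1 of 4 arrays cannot move a mean by 1 SD, so the values of those settings could not count as moved. The authors' deposited ratios repeat those of the processed signals. The count of 90 is thus no measure of how stable the means were. The median of all tested probes was 0.18 with arrays centred on their medians and -0.11 with channels shifted to their 75th percentile, against 0.0088 with loess. With median centring the brighter Tfpi probe had 0.47 and the dimmer 1.00, Plau had 0.15 and the brighter F3 probe 0.071, so the signs of Plau and of this F3 probe turned, while both stayed below the median of all probes. Plaur had -0.065 there, with 2 arrays above and 2 below 0, Thbd had 0.59 and Procr 0.43, and of the 5 probes with 1 sign on all 4 arrays only the dimmer Tfpi probe kept it, while Thbd, Procr and the brighter Tfpi probe were above 0 on 3 of 4. Serpine2 had -0.058 with the 75th percentile shift. Leaving out 1 replicate at a time gave 0.62 to 0.90 for the dimmer and 0.11 to 0.22 for the brighter Tfpi probe, 0 to 1 probes of the set past the test, 0 to 2 of the 26 pathway genes and 0 to 1297 of all probes, where the highest count of each came without replicate 1. Plau had 0.15 without replicate 1, and the dimmer F3 probe -0.0028 without replicate 3. Of all probes, 13 passed with processed signals, 8 with no replicate block (the pairing of cultures by array left out), 3 with the methods' t-test and 2 with a limit of 50% on the coefficient of variation. This limit gave 2 also on processed signals and 2 on raw signals, both chosen after seeing the data. None of the settings other than leaving out replicate 1 called a probe of the set or a pathway gene. The causes were not tested. Brightness limits Tfpi2 and Plg, which were not above background.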
